A study of Mus musculus with 6 samples.

Results

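The genes described here are 10 genes of the Notch pathway: the Fringe genes Lfng, Mfng, and Rfng, the receptor genes Notch1, Notch2, and Notch3, and the targets and regulators Dtx1, Hes1, Hes5, and Nrarp. They are 10 of 21938 protein-coding genes. They were selected from measured values of these same libraries, and which values were used is not stated. Every difference at these genes is therefore a description and not a test. A CpG belonged to a gene when it lay in the gene body or within 10 kb on either side (GRCm38). It was used when it had at least 5 reads in all 6 libraries, and CpGs in CpG islands (CGIs) were kept apart from the rest. Of 2557 CpGs listed in these windows, 854 passed, 490 inside and 364 outside CGIs, out of 1192344 such CpGs in the series.

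DNA methylation was measured by reduced representation bisulfite sequencing (RRBS), in which genomic DNA is cut with MspI and treated with bisulfite, which spares methylated cytosines and turns the others into bases read as T. The cells were CD8+ T cells sorted with magnetic beads from lymph nodes of C57BL/6N mice. There were 2 libraries per genotype, taken here as separate mice. The genotypes were WT, hSTAT5B +/T, and hSTAT5B N642H +/T (hSTAT5BN642H), where T is a transgene for human STAT5B driven by the Vav1 promoter, which is active throughout the blood lineage. Each transgene was studied in a single selected line, CD8+ T cells were taken at 13 weeks of age, and the hSTAT5BN642H mice were described as diseased, so that genotype and disease state cannot be told apart.

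In Notch signaling, a ligand on a neighboring cell binds the receptor, which is then cleaved so that its intracellular part enters the nucleus, joins RBPJ, and switches on targets such as Hes and Dtx1. Fringe enzymes add a sugar to the extracellular repeats of the receptor and thereby change which ligand it answers to. The pathway is best known in this lineage for its role in directing early thymocytes to the T cell fate, after which much of it is turned down. Methylation of a CGI at a gene start goes with silencing of the gene, whereas CpGs in gene bodies are methylated at most loci.

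Read counts summed over CpGs were 43291086 to 67007186 per library, on 2597893 to 3445555 CpGs. A read that covers several CpGs is counted at each of them. Reads given below for a region are summed over its CpGs in the same way, so that the depth per CpG is lower. The median CpG had 5 reads in WT replicate 1, the lowest, and 11 reads in hSTAT5BN642H replicate 1, the highest. Intervals on reads cover counting error only, and not the spread between mice. The reads had no molecular identifiers, so that copies of 1 molecule count as separate reads and the intervals may be too narrow. The labelled cell type was checked at Cd8a and Cd8b1, which encode the CD8 chains. Around Cd8a, the mean level was 65.7% in WT replicate 1, against 35.8% in WT replicate 2 and 29.8% to 42.6% in the other libraries, and the main values of Lfng and Dtx1 are therefore also given without WT replicate 1. Around Cd8b1 the level was 44.2% and 45.6% in WT, 23.9% and 29.4% in hSTAT5B, and 13.9% and 14.3% in hSTAT5BN642H. Cd8b1 thus had the same order of genotypes as Lfng below. The CD8 T cell list of 8 genes had a mean of 67.2% and 61.7% in WT, 60.0% and 59.6% in hSTAT5B, and 56.8% and 56.4% in hSTAT5BN642H. Cd8a and Cd8b1 differed by -19.2 and -30.7 percentage points between hSTAT5BN642H and WT, and the other 6 genes by -3.98 to 0.19. The B cell list, with 7 of 8 genes measured, had 63.9% and 64.9% in WT, 64.3% and 67.7% in hSTAT5B, and 65.4% and 65.1% in hSTAT5BN642H, so that both hSTAT5BN642H libraries were above WT. Of its genes, 2 were higher and 2 lower in hSTAT5BN642H than in WT without overlap, against 14% and 27.7% of all gene windows. The differences ranged from -5.10 to 9.05 percentage points, with a median of -0.107. Cd79b, chosen here after its values were seen, had the largest, 9.05 percentage points. In bulk DNA, a different share of cells and a different level per cell cannot be told apart, and the part of the sort in the values below was not tested.

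Over the whole genome, limma called 0 of 19966 gene windows outside CGIs at an adjusted p under 0.05 in the comparison of hSTAT5BN642H with WT, which is 0% of the windows, and 1666 windows (8.34%) had an unadjusted p under 0.05. It also called 0 for hSTAT5B minus WT and for hSTAT5BN642H minus hSTAT5B, where 5.96% and 8.89% had an unadjusted p under 0.05. Of the 10 genes, 0 were called in any comparison. With 2 libraries against 2, an exact permutation test of a single value cannot give a p under 0.333. Whether the libraries of 2 genotypes overlapped is therefore given for the main values.

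Lfng, which encodes Lunatic fringe, was the gene with the largest difference among the 10. Its 47 CpGs outside CGIs had a mean level of 56.9% and 53.6% in WT, 48.2% and 52.7% in hSTAT5B, and 35.7% and 35.1% in hSTAT5BN642H. Both hSTAT5BN642H libraries were below all others, and the hSTAT5B libraries lay just below WT. The difference of hSTAT5BN642H minus WT was -19.9 percentage points, from 55.3% ± 2.33 to 35.4% ± 0.431 (SD, n = 2), which is number 14 of 19966 gene windows by size. The difference was -4.84 percentage points for hSTAT5B minus WT, and -15.0 for hSTAT5BN642H minus hSTAT5B. Without WT replicate 1, the difference of hSTAT5BN642H minus WT was -18.2 percentage points.

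**Figure D1:**
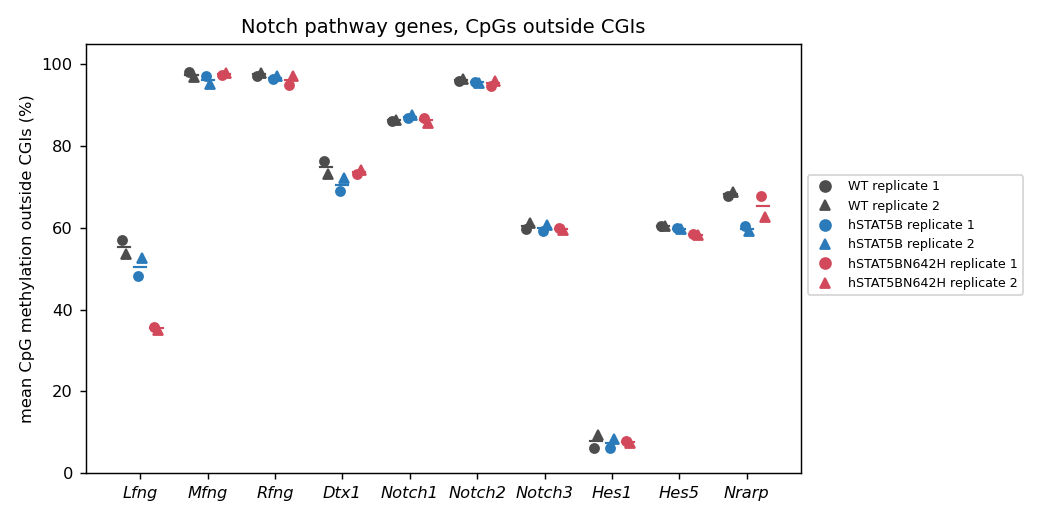
Mean methylation level (%) of the CpGs outside CGIs for each gene, with 1 point per library, circles for replicate 1, triangles for replicate 2, and short lines at the genotype means. The hSTAT5BN642H points of Lfng, at 35.7% and 35.1%, lie far below its WT points at 56.9% and 53.6%, and the next largest difference between these genotypes is that of Nrarp, at -3.08 percentage points.

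The difference at Lfng was not spread evenly over the locus. Of the 47 CpGs, 23 were lower in both hSTAT5BN642H libraries than in both WT libraries and 2 were higher, while over all CpGs outside CGIs 15.5% were lower and 9.62% higher in this way. A difference of at least 20 percentage points was seen downward at 20 CpGs and upward at 1, against 2.41% and 1.91% of all CpGs outside CGIs. For hSTAT5B minus WT, 12 CpGs of Lfng were lower without overlap (background 9.57%), 6 were lower by at least 20 percentage points (1.87%), and 3 higher (1.96%). For hSTAT5BN642H minus hSTAT5B, 19 were lower and 0 higher without overlap (background 16.2% and 8.73%), with 17 lower and 0 higher by at least 20 percentage points (2.42% and 1.8%). These shares were not set against each other by a test, because the gene was chosen from measured values of these data.

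The strongest loss within the gene itself was in a stretch of intron and coding exon of Lfng (gene ENSMUSG00000029570.5, chr5:140607320-140615545, plus strand). It is shown here as RefSeq has it for GRCm38, on the plus strand, because it had the largest tile difference inside the Lfng gene. Capitals mark the 5 CpGs measured in all libraries at chr5:140613138-140613254.
Lfng exon block: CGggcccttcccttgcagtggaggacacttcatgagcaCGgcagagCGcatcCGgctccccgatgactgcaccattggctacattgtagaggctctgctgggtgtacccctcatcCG

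These 5 CpGs had a mean level of 96.5% and 95.8% in WT, 79.6% and 93.3% in hSTAT5B, and 53.6% and 37.4% in hSTAT5BN642H. Reads summed over the 5 CpGs were 60 to 138 per library. WT was close to full methylation, and both hSTAT5BN642H libraries were far below. The difference of -50.6 percentage points to WT was number 13 by size among 121049 tiles of 1 kb outside CGIs, of which 24.5% were lower in hSTAT5BN642H than in WT without overlap. The last CpG of the stretch had 17 of 19 and 14 of 16 reads methylated in WT, 7 of 10 and 7 of 7 in hSTAT5B, and 8 of 24 and 5 of 22 in hSTAT5BN642H. The 95% Wilson intervals at this CpG were 68.6% to 97.1% and 64.0% to 96.5% in WT, and 18.0% to 53.3% and 10.1% to 43.4% in hSTAT5BN642H. At the first CpG, by contrast, the hSTAT5BN642H libraries were themselves apart, at 73.3% and 23.8%.

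A second block lay downstream of Lfng, at chr5:140622918-140622957, in the 3' UTR of Ttyh3, a chloride channel family gene that is transcribed toward Lfng (chr5:140620578-140649031, minus strand). Its 4 CpGs lie close enough to share reads, so that they are not independent of each other. Their mean was 91.9% and 86.5% in WT, 64.2% and 72.4% in hSTAT5B, and 18.5% and 25.3% in hSTAT5BN642H. This difference of -67.3 percentage points was number 2 of the 121049 tiles. The CpG with the largest difference in the whole Lfng window, at position 140622952, was methylated in 54 of 59 and 32 of 37 reads in WT, 20 of 31 and 30 of 42 in hSTAT5B, and 6 of 42 and 11 of 43 in hSTAT5BN642H. Its Wilson intervals were 72.0% to 96.3% over the WT libraries and 6.72% to 40.2% over the hSTAT5BN642H libraries. Those of hSTAT5B, 46.9% to 82.8%, overlapped with those of WT and lay above those of hSTAT5BN642H.

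Another block followed at chr5:140623275-140623394, also in the 3' UTR of Ttyh3. Its 5 CpGs had 95.4% and 95.3% in WT, 83.7% and 93.2% in hSTAT5B, and 67.3% and 69.2% in hSTAT5BN642H, a difference of -27.1 percentage points to WT. In all 3 blocks both hSTAT5B libraries lay below both WT libraries and above both hSTAT5BN642H libraries, an order that 15% of all tiles had against WT and 26.1% against hSTAT5BN642H, each counted by itself. The hSTAT5B minus WT difference was -9.69 percentage points in the exon block, -20.9 in the second, and -6.90 in the third, and hSTAT5BN642H minus hSTAT5B was -41.0, -46.4, and -20.2 percentage points.

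**Figure D2:**
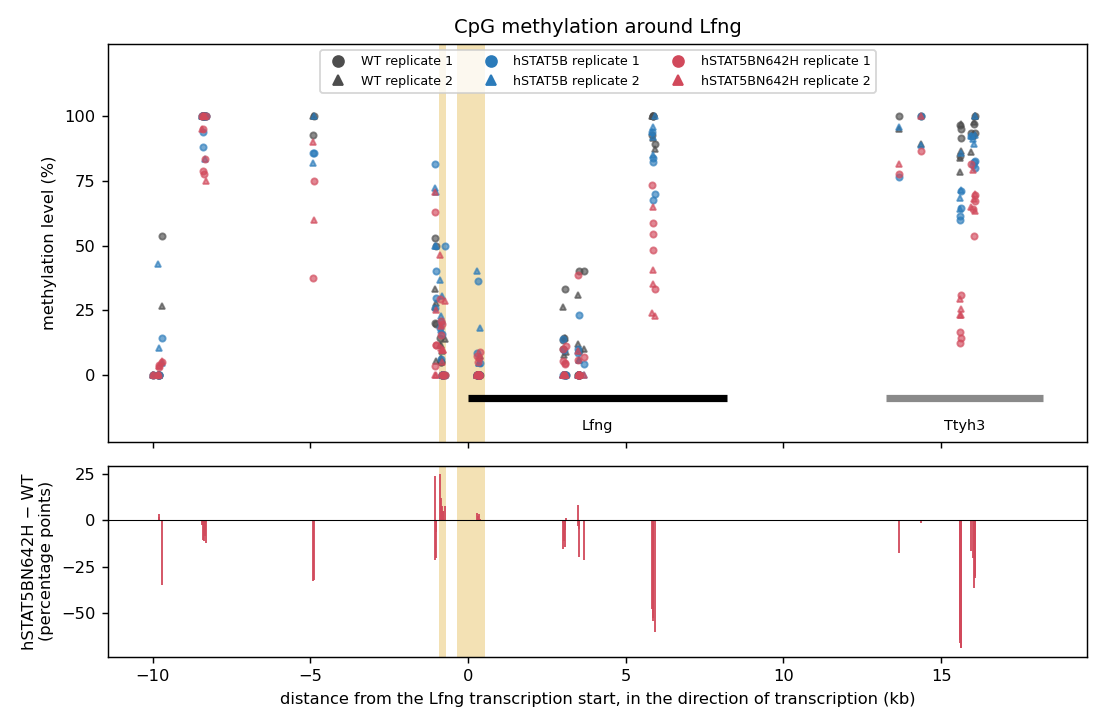
Methylation level (%) of each CpG around Lfng against the distance from its transcription start (kb), with 1 point per library in the upper panel and the difference of hSTAT5BN642H minus WT (percentage points) in the lower panel. Yellow bands are CGIs, the black bar is Lfng, and the gray bar is the part of Ttyh3 in the window, and the deepest losses stand in the exon block of Lfng and at the end of Ttyh3, where the tile means differ by -50.6 and -67.3 percentage points.

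By position, the 19 CpGs in the Lfng gene body differed by -18.1 percentage points between hSTAT5BN642H and WT, the 11 CpGs in Ttyh3 by -38.5, and the 17 CpGs upstream of Lfng by -9.85. The hSTAT5B minus WT difference was -7.85, -11.8, and 3.02 percentage points in these parts. It had the other sign upstream, but there the libraries overlapped, with 58.2% and 54.1% in WT and 55.6% and 62.7% in hSTAT5B. In this upstream part, a tile in an exon of Gm43703 had 35.6% and 23.2% in WT, 44.3% and 60.7% in hSTAT5B, and 22.4% and 23.9% in hSTAT5BN642H. Without the 3 blocks, the remaining 33 CpGs went from 40.9% and 37.0% in WT to 30.3% and 30.8% in hSTAT5BN642H, a difference of -8.39 percentage points, with hSTAT5B at 36.1% and 38.1%. This split was made after the values were seen.

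Inside the CGIs of Lfng, the mean level was higher in the transgenic genotypes than in WT. The CGI of Lfng with the largest difference lay upstream of the gene and had 8 CpGs measured in all libraries. Its level was 2.98% and 6.54% in WT, 13.8% and 13.4% in hSTAT5B, and 10.6% and 17.2% in hSTAT5BN642H. Both transgenic genotypes were above WT, by 8.86 percentage points in hSTAT5B and 9.14 in hSTAT5BN642H, and did not separate from each other. Among all CGIs, 21.4% were higher in hSTAT5BN642H than in WT without overlap and 17.9% in hSTAT5B. The CGI at the Lfng start was at 0% and 0.595% in WT, 4.09% and 5.61% in hSTAT5B, and 2.31% and 0% in hSTAT5BN642H, so that it was close to unmethylated in all 6 libraries. Over the 20 CGI CpGs of Lfng the mean was 2.08% ± 1.26 in WT, 8.35% ± 0.536 in hSTAT5B, and 6.25% ± 0.882 in hSTAT5BN642H (SD, n = 2).

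Mfng (ENSMUSG00000018169.12, chr15:78755882-78773475, minus strand) and Rfng (ENSMUSG00000025158.7, chr11:120780746-120784207, minus strand), which encode the related enzymes Manic and Radical fringe, were nearly fully methylated outside CGIs in all libraries. The 25 CpGs of Mfng, none of which is in a CGI, had 98.1% and 96.8% in WT, 97.2% and 95.3% in hSTAT5B, and 97.4% and 97.8% in hSTAT5BN642H. The 21 CpGs of Rfng outside its CGI had 97.2% and 97.9% in WT, 96.4% and 97.1% in hSTAT5B, and 94.96% and 97.2% in hSTAT5BN642H. The WT and hSTAT5BN642H libraries overlapped at both genes. Among CGIs, the one shared by the starts of Rfng and Gps1, with 50 CpGs, was at 1.30% to 2.30% in all libraries. The largest tile difference between hSTAT5BN642H and WT was -2.25 percentage points for Mfng and 2.08 for Rfng, the latter in a coding exon of Gps1 with as few as 15 reads. Of their single CpGs without overlap, the largest differences were -5.05 percentage points in an exon of Card10 near Mfng and -12.5 in an intron of Gps1 near Rfng, where WT had only 6 and 9 reads, all methylated.

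At the receptor genes the transgenic genotypes were close to WT in unweighted mean level. Notch2 (ENSMUSG00000027878.11, chr3:98013527-98150361, plus strand) was the most methylated, with 88 CpGs outside CGIs at 96.0% and 96.5% in WT, 95.6% and 95.6% in hSTAT5B, and 94.8% and 96.0% in hSTAT5BN642H. Notch1 (ENSMUSG00000026923.15, chr2:26457903-26516663, minus strand), the main receptor of early thymocytes, had 32 such CpGs at 86.2% and 86.5% in WT, 86.9% and 87.6% in hSTAT5B, and 86.9% and 85.7% in hSTAT5BN642H. Notch3 (ENSMUSG00000038146.8, chr17:32120820-32166852, minus strand), which is used in thymocytes and has been linked to T cell leukemia, had 43 CpGs at 59.6% and 61.3% in WT, 59.1% and 60.6% in hSTAT5B, and 59.9% and 59.6% in hSTAT5BN642H. The difference of hSTAT5BN642H minus WT was -0.87 percentage points for Notch2, -0.036 for Notch1, and -0.70 for Notch3, all within 1 percentage point of 0. For Notch1 this depended on the setting. Its difference ranged from -0.611 to 6.02 percentage points over the alternatives, and its log2 ratio of summed reads changed by 0.479. Notch2 was lower than WT without overlap in both transgenic genotypes, Notch1 was higher than WT without overlap in hSTAT5B, and the libraries overlapped with WT in the other comparisons. Their tiles with the largest differences were -3.75 percentage points in a coding exon of Notch1 and -3.40 in intergenic sequence 3' of Notch2.

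The receptor CGIs ranged from nearly unmethylated to nearly fully methylated. Those at the 5' UTR of Notch1, the start of Notch2, and the start of Notch3 were between 0% and 3.56% in every library. A CGI of the noncoding gene Gm17276 beside Notch3 and both intron CGIs of Notch3 were between 0.278% and 15.6%. A CGI in the 3' part of Notch1, at chr2:26465449-26465654 in coding exon and intron, was between 93.1% and 98.1%. A CGI over a coding exon of Notch3, at chr17:32143439-32143722 with 11 CpGs, was intermediate, and it was the receptor CGI with the largest difference. It had 44.9% and 39.3% in WT, 44.1% and 48.4% in hSTAT5B, and 53.0% and 53.3% in hSTAT5BN642H, on 259 to 331 reads per library. Both hSTAT5BN642H libraries were above all 4 others, by 11.0 percentage points over WT and 6.92 over hSTAT5B, whereas hSTAT5B and WT overlapped. Of all CGIs, 21.4% were higher in hSTAT5BN642H than in WT without overlap, and 19.7% were higher than in hSTAT5B. A tile in another coding exon of Notch3 had 55.0% and 55.6% in WT, 68.4% and 66.7% in hSTAT5B, and 71.4% and 66.7% in hSTAT5BN642H, with both transgenic genotypes above WT on 27 to 84 reads.

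Single CpGs of the receptor genes differed by more than their windows. In an intron of Notch1, a CpG at position 26483008 was methylated in 11 of 19 and 15 of 22 reads in WT, 27 of 35 and 27 of 34 in hSTAT5B, and 44 of 56 and 35 of 39 in hSTAT5BN642H. It was 21.1 percentage points higher in hSTAT5BN642H than in WT, and 15.2 higher in hSTAT5B. The corresponding CpG of Notch3, at position 32122535 of the same exon tile, differed by 22.7 percentage points, and that of Notch2, 3' of the gene at position 98151194, by -13.0. They were picked as the largest of each gene, which fixes their size in part.

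Dtx1 had the largest difference inside a CGI. It encodes Deltex, a ubiquitin ligase that Notch induces in T cells and that is linked to T cell anergy. Its window (ENSMUSG00000029603.15, chr5:120680202-120711927, minus strand) holds a CGI at the gene start and another over an internal coding exon, at chr5:120694415-120695104. The internal CGI is shown through the 2 stretches that hold its 19 measured CpGs, in capitals, on the plus strand of GRCm38, at chr5:120694484-120694620 and chr5:120695063-120695095.
Dtx1 intragenic CGI, first block: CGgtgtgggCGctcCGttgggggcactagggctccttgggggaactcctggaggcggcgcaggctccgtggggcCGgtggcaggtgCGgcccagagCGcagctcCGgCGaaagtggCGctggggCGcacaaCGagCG
Dtx1 intragenic CGI, second block: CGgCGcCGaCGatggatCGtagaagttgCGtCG

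The internal CGI was at 41.0% and 34.9% in WT, 51.1% and 42.0% in hSTAT5B, and 67.2% and 62.4% in hSTAT5BN642H. Reads summed over its measured CpGs were 199 to 518 per library. Each genotype was above the last without overlap, with hSTAT5BN642H 26.8 percentage points over WT and 18.3 over hSTAT5B, and hSTAT5B 8.59 over WT. Of all CGIs, 21.4%, 19.7%, and 17.9% were higher without overlap in these comparisons, in this order. Without WT replicate 1 the difference of hSTAT5BN642H to WT was 29.9 percentage points. Over all 13347 CGIs tested, limma called 0, which is 0%, and 761 (5.7%) had an unadjusted p under 0.05, against 6.19% for hSTAT5B minus WT. The CGI at the Dtx1 start, with 36 CpGs in the 5' UTR and the first intron, was at 1.82% to 2.998% in all 6 libraries.

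Among the 55 CGI CpGs of Dtx1, 21 were higher in both hSTAT5BN642H libraries than in both WT libraries and 2 were lower, against a background of 6.83% and 4.51%. A rise of at least 20 percentage points was seen at 15 CpGs (background 0.861%). A CpG near the end of the first stretch, at position 120694615, had 1 of 11 and 0 of 20 reads methylated in WT, 1 of 18 and 2 of 17 in hSTAT5B, and 13 of 35 and 7 of 17 in hSTAT5BN642H, and both hSTAT5BN642H libraries were above the other 4. In the second stretch, the CpG at position 120695072 had 45.5% and 41.7% in WT, 75% and 35.7% in hSTAT5B, and 76.7% and 81.2% in hSTAT5BN642H. The first CpG of the first stretch had a different order, with 0% and 4.17% in WT, 55.6% and 50.0% in hSTAT5B, and 16.7% and 23.1% in hSTAT5BN642H, but on as few as 6 reads. These 3 CpGs were chosen after their values were seen.

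**Figure D3:**
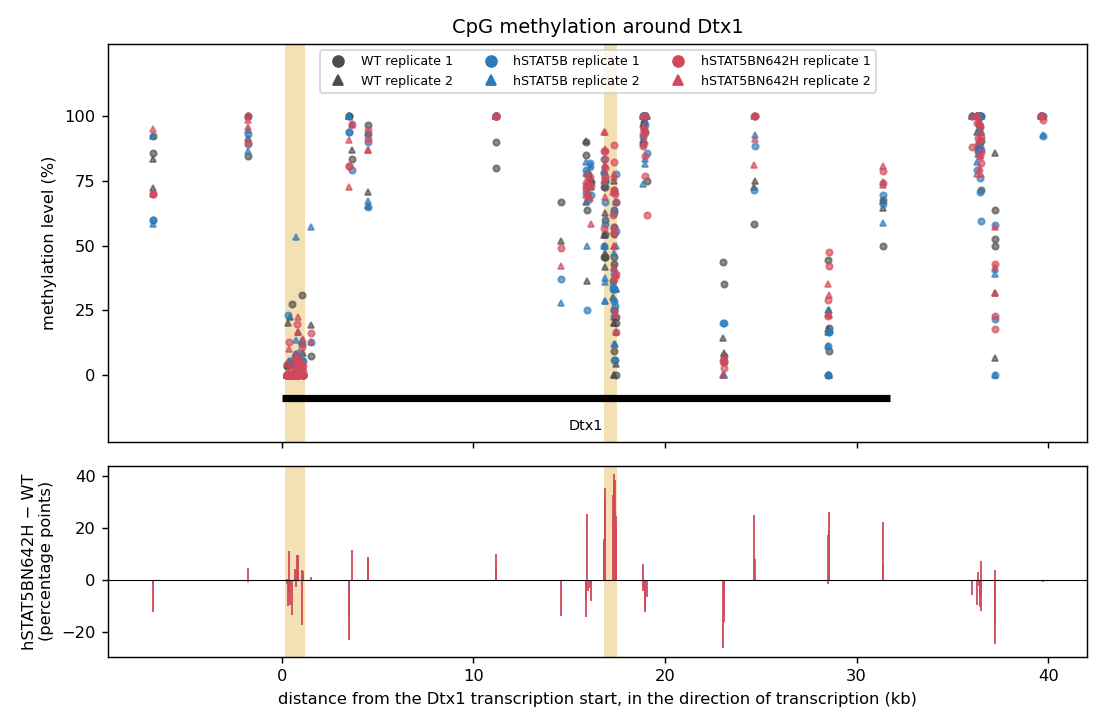
Methylation level (%) of each CpG around Dtx1 against the distance from its transcription start (kb), drawn as for Lfng, with the difference of hSTAT5BN642H minus WT (percentage points) in the lower panel. The CGI at the start is close to 0% in all libraries, and the internal CGI shows a run of upward differences, with a mean of 26.8 percentage points.

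Outside its CGIs, Dtx1 had 53 CpGs at 76.3% and 73.2% in WT, 69.0% and 72.2% in hSTAT5B, and 73.1% and 74.1% in hSTAT5BN642H. The WT and hSTAT5BN642H libraries overlapped, with a difference of -1.17 percentage points. Tiles within the gene went in both directions. A coding exon tile starting at 120683001 had 17.9% and 14.8% in WT, 11.1% and 9.03% in hSTAT5B, and 35.3% and 28.2% in hSTAT5BN642H, a difference of 15.3 percentage points to WT on 27 to 100 reads (13% of all tiles were higher without overlap). An intron tile starting at 120688001 was lower instead, with a difference of -15.1 percentage points to WT, but on 16 to 115 reads and with WT at 28.7% and 9.76%. The single CpG with the largest difference without overlap, -26.3 percentage points, lay in that intron tile and had 7 of 16 and 2 of 14 reads methylated in WT, and 2 of 37 and 0 of 15 in hSTAT5BN642H.

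Hes1 (ENSMUSG00000022528.8, chr16:30064384-30067796, plus strand) and Hes5 (ENSMUSG00000048001.7, chr4:154960923-154962371, plus strand) encode repressors of the basic helix-loop-helix family, the best known targets of Notch. Hes1 had the lowest mean level, with 28 CpGs outside CGIs at 6.15% and 9.34% in WT, 6.05% and 8.39% in hSTAT5B, and 7.90% and 7.26% in hSTAT5BN642H. The level was not low throughout, since the tile starting at 30062001, upstream of the gene, had 18.2% and 25.9% in WT, 26.7% and 29.7% in hSTAT5B, and 13.3% and 25.2% in hSTAT5BN642H. Its 3 CGIs were between 0.934% and 3.64% in every library. The Hes1 tile with the largest difference was 3.89 percentage points higher in hSTAT5BN642H and overlapped with WT. A CpG 3' of Hes1, at position 30069886, had a larger difference, with 4 of 12 and 4 of 11 reads methylated in WT, 1 of 8 and 3 of 6 in hSTAT5B, and 1 of 10 and 0 of 9 in hSTAT5BN642H, a difference of -29.8 percentage points on few reads.

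At Hes5, 22 CpGs outside CGIs had 60.4% and 60.5% in WT, 59.9% and 59.6% in hSTAT5B, and 58.4% and 58.2% in hSTAT5BN642H. The genotypes did not overlap by mean level, although the difference of hSTAT5BN642H to WT was only -2.14 percentage points. Without overlap, 27.7% of all gene windows were lower in hSTAT5BN642H than in WT. The share was 14.9% for hSTAT5B minus WT and 29.9% for hSTAT5BN642H minus hSTAT5B. The log2 ratio of summed reads went the other way, by 0.511 for hSTAT5BN642H minus WT and 0.389 for hSTAT5B minus WT. The CGI at the Hes5 start was at 1.49% to 2.61% and that of the neighboring gene Pank4 at 0.699% to 6.22%. The Hes5 tile with the largest difference, -4.91 percentage points, lay upstream of the gene. A CpG upstream of Hes5, at position 154958534, was at 43.3% and 73.5% in WT, 47.5% and 44.4% in hSTAT5B, and 35.3% and 30.8% in hSTAT5BN642H.

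Nrarp (ENSMUSG00000078202.3, chr2:25180758-25183339, plus strand), which encodes an ankyrin repeat protein that Notch induces and that restrains it, was the least covered gene, with 5 CpGs outside CGIs on 55 to 99 reads. They had 67.9% and 68.8% in WT, 60.4% and 59.2% in hSTAT5B, and 67.8% and 62.7% in hSTAT5BN642H. The hSTAT5B libraries were the lowest here, with a difference of -8.56 percentage points to WT, whereas that of hSTAT5BN642H was -3.08. The single Nrarp tile that could be compared differed by -2.36 percentage points, and a CpG far upstream at position 25171133 by -8.33. The CGI over Nrarp was at 0.730% to 2.09% in all libraries, and a second CGI had 0 CpGs with enough reads.

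**Figure D4:**
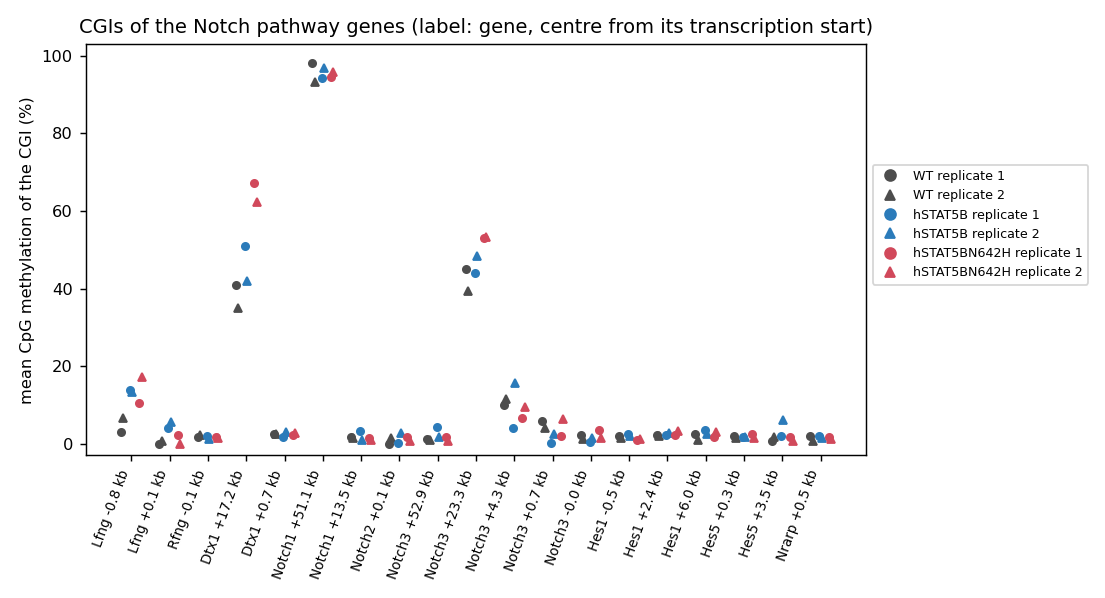
Mean methylation level (%) of each CGI with at least 3 measured CpGs, 19 in all, labelled by gene and by the distance of its centre from the transcription start, with 1 point per library. Most CGIs lie near 0% in all genotypes, and the internal CGIs of Dtx1 and Notch3 rise from WT to hSTAT5BN642H, to 67.2% and 53.3% at most.

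For all 10 genes outside CGIs, the median difference of hSTAT5BN642H minus WT was -1.02 percentage points, against -0.52 over all 19966 windows. The groups did not overlap at 4 genes that were lower (Lfng, Notch2, Hes5, and Nrarp) and at 0 that were higher, where 27.7% and 14% of all windows did so. For hSTAT5B minus WT, 6 genes were lower and 1 was higher without overlap (background 14.9% and 18.6%), with a median of -0.75 percentage points. For hSTAT5BN642H minus hSTAT5B, 2 were lower and 3 higher (background 29.9% and 12.7%), with a median of -0.14. The comparisons share libraries, so that these counts are not independent of each other. They also rest on unweighted mean levels. In the log2 ratios of summed reads used by limma, hSTAT5B was below WT at Lfng (-0.471) and Notch2 (-0.218). It was above WT at Rfng (0.019), Dtx1 (0.130), Hes5 (0.389), and Nrarp (0.201), which were lower by mean level. For hSTAT5BN642H minus WT, Hes5 likewise had a positive log2 change (0.511).

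In WT, Mfng, Rfng, and Notch2 were the highest, between 96.0% and 98.1%, followed by Notch1, Dtx1, and Nrarp, in this order and without overlap. Hes5 and Notch3, at 60.4% each on average, could not be told apart, Lfng came next with 53.6% to 56.9%, and Hes1 was the lowest with 6.15% to 9.34%. In hSTAT5BN642H, Lfng and Hes1 were again the lowest, and Lfng, at 35.1% to 35.7%, stood further below Notch3 and Hes5, at 58.2% to 59.9%. Which CpGs were measured differed between genes, and the levels depend on it.

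**Figure D5:**
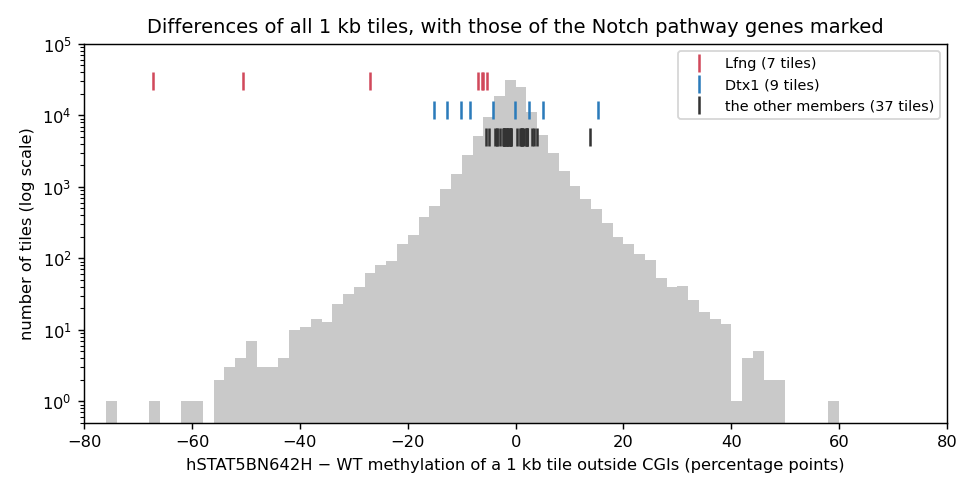
Number of 1 kb tiles outside CGIs (log scale) by the difference of hSTAT5BN642H minus WT (percentage points), 121049 tiles in gray, with the tiles of the Notch pathway genes as ticks. The Lfng ticks at -67.3, -50.6, and -27.1 lie in the far left tail, and the 37 ticks of the genes other than Lfng and Dtx1 lie between -5.59 and 13.8.

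The other genes of the pathway gave a background from the same libraries. Of 52 genes, which included ligands, the receptor gene Notch4, processing enzymes, the RBPJ complex, inhibitors, and other targets, 51 had enough CpGs outside CGIs. Their median difference of hSTAT5BN642H minus WT was -0.15 percentage points, with a range of -6.99 to 5.58. Without overlap, 8 were higher and 11 lower, against 14% and 27.7% of all windows, 0 were called by limma, and 3 had an unadjusted p under 0.05, against 8.34% of all windows. By role, and against the same 14% and 27.7%, 3 of the 13 processing genes were higher and 2 lower, 0 and 2 of the 7 genes of the nuclear complex, 1 and 1 of the 8 inhibitors, 1 and 1 of the 5 ligands, and 3 and 5 of 17 other targets. The largest were Bcl11b, a transcription factor of T cell commitment, at 47.8% and 42.4% in WT and 37.2% and 39.0% in hSTAT5BN642H, Hey2, a repressor related to Hes, at 11.6% and 8.52% against 12.6% and 18.6%, Psen2, a catalytic subunit of gamma-secretase, at 77.4% and 81.9% against 87.0% and 83.3%, and Snw1, a coactivator in the RBPJ complex, at 85.2% and 88.1% against 83.5% and 79.0%. The difference at Lfng, -19.9 percentage points, lay outside the range of these 51 genes. Lfng was selected with earlier results of these data known, so that this is a description and not a test.

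The stretches around the members were also searched on both strands for TTCNNNGAA, the consensus letters of a STAT5 site, and for TGGGAA, the core letters of an RBPJ site, in 300 bp. The first was found in 6 of 53 tiles and 1 of 19 CGIs of the members, where 8.75% of all tiles and 3.61% of all CGIs hold it. The second was found in 14 tiles and 6 CGIs, against 25.4% and 14.6% of all. The windows around the 7 Lfng tiles held neither. A match says only that these letters are present.

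The threshold of 5 reads had members on both sides. The 34 CpGs outside CGIs whose least covered library had exactly 5 reads had a mean of 73.8% in WT, 71.4% in hSTAT5B, and 72.1% in hSTAT5BN642H. The 38 CpGs with 4 reads in that library, which were left out, had 51.1%, 55.3%, and 55.1%.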

How the data were processed

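The authors trimmed the RRBS reads with Trimmomatic, aligned them to GRCm38 (mm10) with BSMAP, and derived methylation per CpG. The deposited files give, per CpG and library, raw counts of methylated and of total reads, and a score that the authors scaled from their ratio, used here only as a check. Versions of these tools are not given in the sources used here. All 4175106 distinct CpGs were CG in the GRCm38 sequence, on which 16096 CGIs were called by the UCSC rule (score 17 for a CpG and -1 for any other base, length over 200 bp, GC over 50%, observed/expected CpG over 0.6). Genes were taken from GENCODE M21.

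The level of a region was the unweighted mean over its CpGs of the methylated percent of reads, using CpGs covered by 5 reads or more in each of the 6 libraries. limma was fitted, 2-sided and with Benjamini-Hochberg adjustment at 0.05, on log2((methylated reads + 1)/(unmethylated reads + 1)) of all CGIs, gene windows, 1 kb tiles (each with at least 3 CpGs), and single CpGs, with all 6 libraries in 1 model. The code was tested on simulated data. Genotype labels came from GEO. The genes, lists, tests, and the rule for named regions were chosen with earlier results of these data known. The rule named, for every gene, the tile, the CGI, and the non-overlapping CpG outside CGIs with the largest difference of hSTAT5BN642H minus WT, and the 4 pathway genes with the largest difference. Alternatives were 3 or 10 reads per CpG, 5 CpGs per region, an offset of 0.5, levels in place of log ratios, a mean-variance trend, a quasi-binomial model on pooled reads, Fisher's exact test for single CpGs, only the genotypes compared, the replicate number as a block, 2 kb flanks, only CGIs of at least 500 bp, 500 bp tiles, and leaving out each library. The split of the Lfng window was added after the data were seen. Replicates were taken as separate mice. For RRBS the paper gives n = 2 per genotype. The fits were run with limma 3.58.1 under R 4.3.3, and all other steps under Python 3.11.15 with scipy 1.17.1, pandas 2.3.3, numpy 2.4.6, and matplotlib 3.10.9. Some sequence is not reported here.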

Additional observations from a re-analysis of the deposited data

Results flagged for a closer look

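In 4 of 91 values of the genes, CGIs, and tiles compared, both hSTAT5BN642H libraries lay on one side of both WT libraries and both hSTAT5B libraries on the other. The difference between the transgenic genotypes was not tested. Such a pattern was found in 2.41% of all CGIs and 2.76% of all tiles outside CGIs. For the coding exon tile of Dtx1 starting at 120683001, hSTAT5BN642H was 21.7 percentage points above hSTAT5B, with WT between them. For an intron tile of Notch2 the difference was 5.91 percentage points, from 91.0% and 95.7% in hSTAT5B to 98.6% and 100% in hSTAT5BN642H. In the other direction, hSTAT5BN642H minus hSTAT5B was -2.08 percentage points in an intron tile of Notch1 and -1.18 in the CGI at the Hes1 start, where all libraries were between 1.01% and 2.51%.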

How the results depend on the processing

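Limma called 0 CGIs, gene windows, tiles, and single CpGs in all 3 comparisons, and this count changed only with the model. The quasi-binomial model called 2 CGIs, 51 gene windows, 67 tiles, and 10562 single CpGs for hSTAT5BN642H minus WT, 1 CGI, 2 gene windows, and 5061 single CpGs for hSTAT5B minus WT, and 2 CGIs, 41 gene windows, and 9800 single CpGs for hSTAT5BN642H minus hSTAT5B. For single CpGs, limma on levels called 3689, 1601, and 3430 in these comparisons, and Fisher's exact test on pooled reads, which ignores how mice of 1 genotype vary, 10199, 2304, and 7965. The cause was not tested. For Lfng, the quasi-binomial adjusted p was 0.00876 for hSTAT5BN642H minus WT, 0.921 for hSTAT5B minus WT, and 0.0752 for hSTAT5BN642H minus hSTAT5B. The adjusted p for hSTAT5BN642H minus WT from limma was 0.408, and Lfng was chosen with earlier results of these data known. The replicate numbers did not pair the samples (correlations of deviations of same-numbered samples from -0.0532 to 0.0308), and the replicate block gave 0 calls.

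Of 617 alternatives for the named values, 583 moved the difference by less than 1 SD between replicates and 41 changed its sign. The 583 do not measure stability, because many of these outcomes were fixed in advance. Changing the offset, the limma model, the block, or the minimum of CpGs per region leaves a difference in levels as it is. Leaving out 1 library cannot move it by more than 1 SD as defined here. The sign changed for 7 of 10 genes outside CGIs, all but Lfng, Rfng, and Notch2. Values reached 6.02 percentage points for Notch1, and 7.33 for Hes5 on pooled reads. The sign changed too for 3 of 10 tiles, those of Mfng, Rfng, and Nrarp, for 5 of 9 CGIs, and for 0 of 10 CpGs. The difference of hSTAT5BN642H minus WT stayed between -23.9 and -15.7 percentage points at Lfng, between 23.8 and 29.9 at the internal CGI of Dtx1, and between 8.20 and 14.7 at that of Notch3. Upstream of Lfng, where the hSTAT5B and WT libraries overlapped, hSTAT5B minus WT was 3.02 percentage points, against -4.84 for the window. The 2 libraries per genotype and 5 to 11 reads at the median CpG limit the precision.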

Other observations

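Marker lists of other T cell states and cells, measured outside CGIs, had no common direction. The median difference of hSTAT5BN642H minus WT was -2.39 percentage points for 4 genes of naive T cells, -0.32 for 5 genes of antigen-experienced T cells, -0.40 for 4 genes of thymocytes, -1.59 for 4 genes of CD4+ T cells, and 0.16 for 6 genes of myeloid cells, and limma called 0 genes of these lists. Without overlap between hSTAT5BN642H and WT, 1 gene was higher and 2 lower in the naive list, 1 and 1 in the myeloid list, 1 and 0 in the thymocyte list, 1 and 0 in the CD4+ list, and 0 and 0 in the antigen-experienced list, where 14% and 27.7% of all gene windows were higher and lower in this way.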
